A study of Mus musculus with 4 samples.

Results

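Thyroid hormone does not cross cell membranes freely, and the brain takes it up through carriers. Members of the organic anion transporter family carry thyroxine across the endothelium of brain vessels and the choroid plexus, and amino acid transporters of the monocarboxylate and heterodimeric families also accept iodothyronines. In the heterodimers a heavy chain brings a light chain to the cell surface, and the light chain forms the transport path.

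The transporters described here were Slco1c1, Slco1a4, Slc16a10, Slc7a5, Slc7a8 and Slc3a2. These 6 of the 22910 genes named on the array were taken with every probe that carries one of their transcript accessions, which found 10 probes among 56601 probes with a value on every array. The study put messenger RNA of the dorsal hippocampus of female mice on 1-colour Agilent arrays, after a series of behavioural tests, to ask what too much iodine does to the brain. One group was on a 20-fold iodine excess (labelled 20-fold iodine), and the other was the control group. Each group had 2 arrays, replicates 2 and 3 of the labels, and other replicates were not analysed here. Strain, age and the length of the iodine intake are not given in the sources used here. Nothing in the labels says that replicates were separate animals, so the spread behind the p-values is that of these samples and may be technical.

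All arrays shared 1 slide and 1 scan, with the 20-fold iodine samples at positions 3 and 4 and the controls at positions 1 and 2, so position and group cannot be told apart. Between 37532 and 37748 probes were well above background on the 20-fold iodine arrays, and between 37891 and 37918 on the control arrays. Hippocampal subfield markers were well above background on all arrays in 10 of 10 cases and neuron markers in 8 of 8. The same held for 11 of 11 choroid plexus and 9 of 9 meninges and fibroblast markers, so detection alone does not tell the labelled tissue from its neighbours. Among the marker lists, that of the choroid plexus differed most between samples. Their summed signal, in multiples of each array's 75th percentile, was 55.7 and 280.3 in 20-fold iodine replicates 2 and 3, against 169.3 and 149.4 in control replicates 2 and 3. Most of this sum comes from Ttr, by far the brightest of these markers.

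Of the transporters, 5 of 6 were measured in the dorsal hippocampus and none passed the test for a change with 20-fold iodine. The sixth was Slc16a10, whose 2 probes were at or near background. In limma's fit over all 38228 probes well above background on at least 2 arrays, 0 of the 8 transporter probes tested passed an adjusted p of 0.05. Nor did any probe of the array, so that the share called was 0% (0 of 38228, smallest adjusted p = 0.517), against 3450 probes with an unadjusted p under 0.05. The estimates for the 8 probes lay between -0.15 and 0.30 on the log2 scale, 4 above and 4 below 0. Their median size was 0.08, beside 0.11 over all probes tested.

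The levels below are log2 signals minus the 75th percentile of the same array, so 0 is a probe as bright as that percentile. Since probes differ in how well they bind, a brighter probe does not show a more abundant transcript. The samples are of whole tissue, in which fewer cells of a type and less RNA per cell cannot be told apart.

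**Figure D1:**
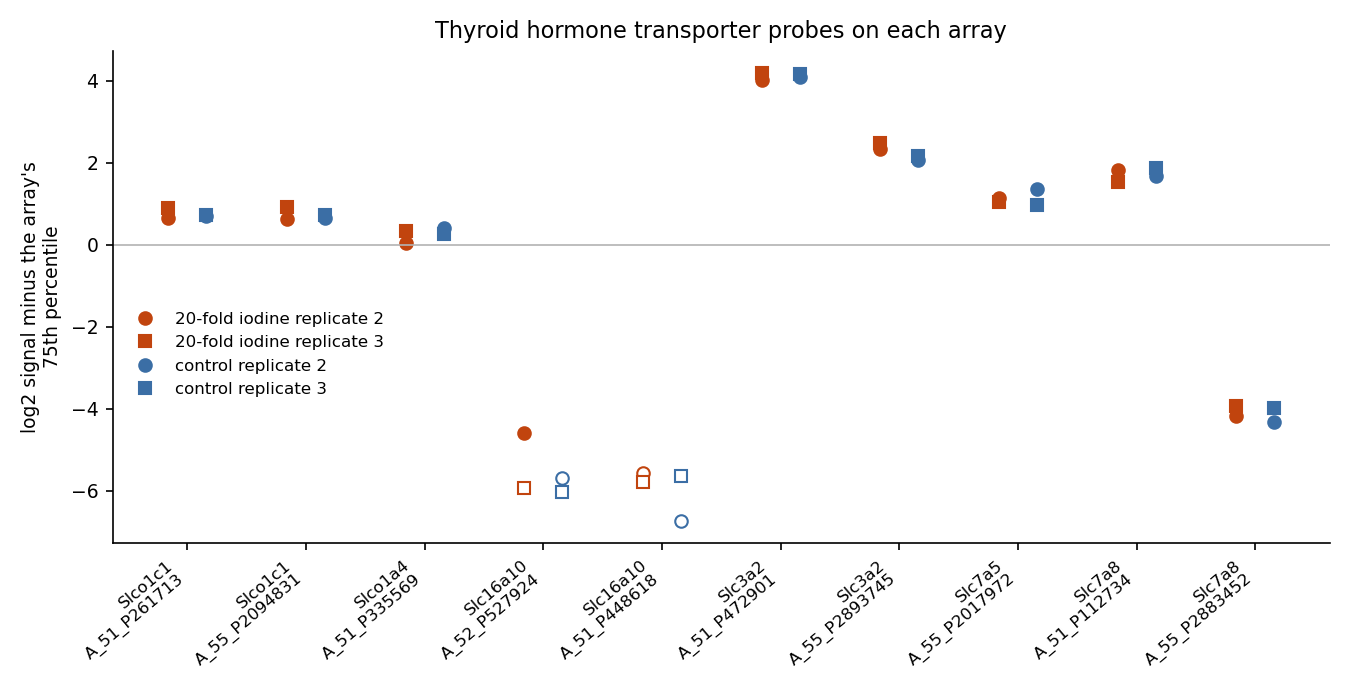
Level of each of the 10 transporter probes on each array, as log2 signal minus the array's 75th percentile (vertical axis), with 20-fold iodine left of control. Filled symbols are well above background and open symbols are not. The 2 Slc16a10 probes lie at the bottom, and the arrays of the groups overlap for every tested probe but the dimmer one of Slc3a2.

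Slco1c1 encodes an organic anion transporter with high affinity for thyroxine, found in rodents on brain endothelium and in the choroid plexus. Its probe A_51_P261713 had levels of 0.65 and 0.91 in 20-fold iodine replicates 2 and 3, against 0.70 and 0.74 in control replicates 2 and 3. Its other probe, A_55_P2094831, which the array assigns to the same transcript, had 0.62 and 0.92 in 20-fold iodine and 0.66 and 0.72 in controls. On both probes the 20-fold iodine arrays lay on either side of the control arrays. The difference, 20-fold iodine minus control, was 0.06 ± 0.12 (SE, n = 2 per group) for the first probe and 0.07 ± 0.13 for the second. The adjusted p-values from limma were 0.907 and 0.897, and the 95% confidence intervals ran from -0.26 to 0.38 and from -0.28 to 0.43, or 0.835-fold to 1.30-fold for the first probe. The probes followed each other closely, with deviations from their 4-array means that differed by at most 0.03 on any array. The spread within the 20-fold iodine group, 0.26 between its arrays on the first probe, was wider than the 0.04 between control arrays.

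Slco1a4 encodes a related organic anion transporter of brain endothelium, which carries bile acids and steroid conjugates as well as iodothyronines. Its only probe, A_51_P335569, had levels of 0.04 and 0.34 in 20-fold iodine replicates 2 and 3, against 0.42 and 0.26 in control replicates 2 and 3. The lowest value was that of 20-fold iodine replicate 2, and 20-fold iodine replicate 3 lay between the controls. The difference was -0.15 ± 0.14 (SE, n = 2 per group), with a 95% confidence interval of -0.52 to 0.23 (limma, adjusted p = 0.791). In folds the interval ran from 0.695 to 1.18. Without 20-fold iodine replicate 2 the difference was 0.003.

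In the mouse gene table Slco1c1 and Slco1a4 lie close together, with 2 protein-coding genes between them, 1 of which is Slco1b2, an organic anion transporter of liver. Slco1b2 was well above background on 1 of 4 arrays and was not tested. The Slco1c1 probes ranked at the 79.4th to 81.6th percentile of all probes of an array, and the Slco1a4 probe at the 75.3rd to 78.0th.

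Brain endothelial and choroid plexus markers are given beside these genes, which both tissues are known to express. All 14 of 14 endothelial markers were tested, 9 higher and 5 lower, with differences from -0.41 to 0.60 and a median of 0.03. Of these, 5 were higher and 3 lower without overlap, 1 had an unadjusted p under 0.05 (limma) and 0 passed the adjusted threshold. Among all tested probes 23.2% were higher and 18.4% lower without overlap, and 9.02% had an unadjusted p under 0.05. Their summed signal was 56.0 and 57.8 in 20-fold iodine replicates 2 and 3, against 55.2 and 60.7 in control replicates 2 and 3. All 11 of 11 choroid plexus markers were tested, and the median difference was -0.36. Their median deviations from the 4-array means were -1.18 and 0.91 in 20-fold iodine replicates 2 and 3, against 0.26 and 0.15 in control replicates 2 and 3. Slco1c1 (A_51_P261713) deviated by -0.10 and 0.16 in 20-fold iodine, against -0.05 and -0.01 in controls. Slco1a4 deviated by -0.22 and 0.08 in 20-fold iodine, against 0.15 and -0.01 in controls. Both transporters were lowest on 20-fold iodine replicate 2, where the choroid plexus markers were lowest too, and Slco1c1 was highest on 20-fold iodine replicate 3, where those markers were highest. The median deviation of the endothelial markers was also lowest on 20-fold iodine replicate 2 and highest on 20-fold iodine replicate 3, though over a narrower range. It was -0.09 and 0.04 on these arrays, against -0.07 and 0.03 in control replicates 2 and 3. The part of the choroid plexus or of the endothelium in these values was not tested. Meninges and fibroblast markers, 9 of 9 tested, had summed signals of 16.1 and 26.8 in 20-fold iodine and 22.4 and 29.0 in controls. Their sum was thus also lowest on 20-fold iodine replicate 2, though not every one of these markers was lowest there.

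**Figure D2:**
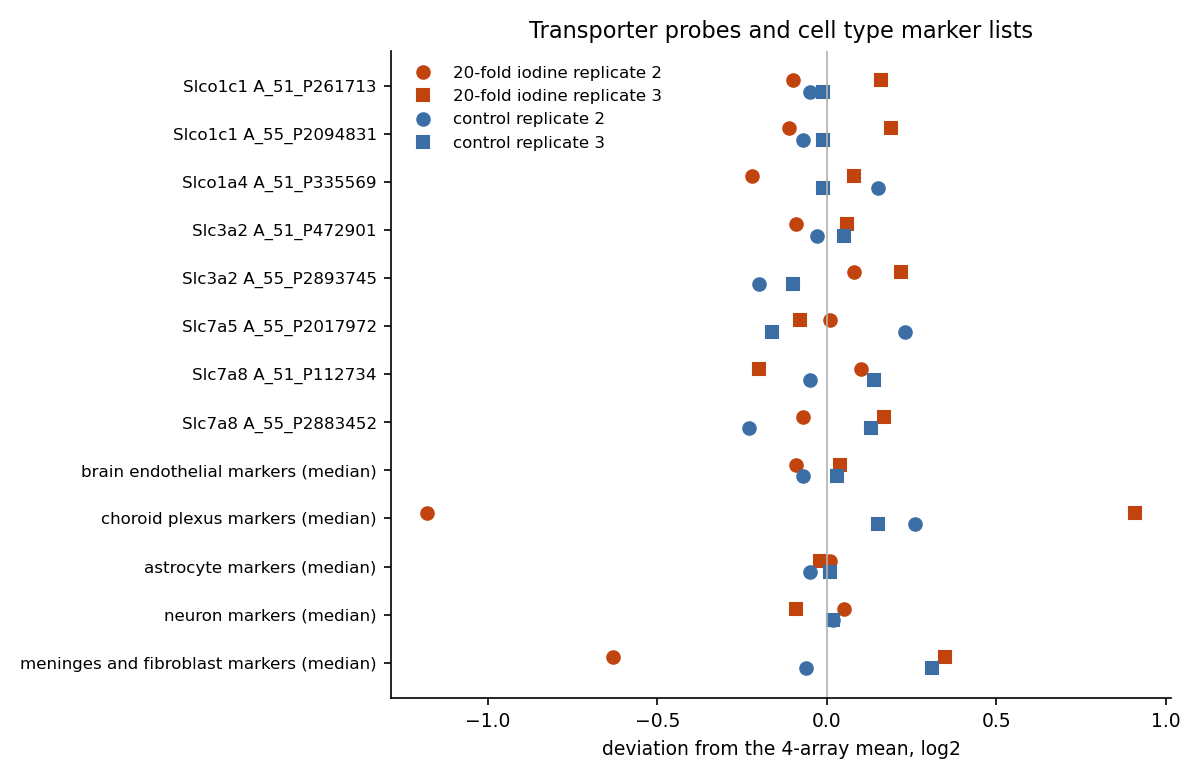
Deviation of each array from the 4-array mean (horizontal axis, log2) for the 8 tested transporter probes and, as medians, for 5 cell type marker lists, with 20-fold iodine drawn above control in each line. The choroid plexus list spans -1.18 to 0.91 within the 20-fold iodine group, while no transporter probe deviates by more than 0.23.

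Slc16a10 encodes a transporter of aromatic amino acids that also carries triiodothyronine. Its probe A_52_P527924 had processed signals of 6.2 and 2.4 in 20-fold iodine replicates 2 and 3, against 3.1 and 2.3 in control replicates 2 and 3. It was well above background only on 20-fold iodine replicate 2. Probe A_51_P448618, assigned to another transcript of the gene, had 3.2 and 2.6 in 20-fold iodine and 1.5 and 3.1 in controls, and was well above background on none of the 4 arrays. By comparison the 75th percentile of an array was 149.7 and 144.3 in 20-fold iodine and 158.8 and 154.2 in controls. The software's own error estimate was 19.6 to 46.2% of the signal of the first probe and 34.1 to 69.9% of that of the second. No fold is given for Slc16a10, whose transcript was not detectable by these probes in either group beyond that single reading.

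Slc3a2 encodes the heavy chain of the heterodimeric amino acid transporters, to which Slc7a5 and Slc7a8 bind. Its brighter probe, A_51_P472901, assigned to the transcript NM_008577, had levels of 4.03 and 4.19 in 20-fold iodine replicates 2 and 3, against 4.10 and 4.18 in control replicates 2 and 3. These arrays overlapped, and the difference was -0.03 ± 0.10 (SE, n = 2 per group), with a 95% confidence interval of -0.29 to 0.24 (limma, adjusted p = 0.954). It was the brightest of the transporter probes, at the 95.9th to 96.4th percentile of each array.

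The dimmer Slc3a2 probe, A_55_P2893745, is assigned to the transcript NM_001161413. It had levels of 2.34 and 2.48 in 20-fold iodine replicates 2 and 3, against 2.06 and 2.16 in control replicates 2 and 3. Both 20-fold iodine arrays were above both controls, and this was the only one of the 8 probes whose groups did not overlap. Over the whole array 23.2% of probes were higher in 20-fold iodine without overlap and 18.4% were lower. The difference was 0.30 ± 0.10 (SE, n = 2 per group), or 1.23-fold, with a 95% confidence interval of 0.04 to 0.57. It did not pass the threshold (limma, adjusted p = 0.537, unadjusted p = 0.0335), and 9.02% of all tested probes had an unadjusted p under 0.05. Under the alternatives tried it stayed between 0.23 and 0.38, with adjusted p-values of 0.321 to 0.782. Among all probes of like brightness the central 95% of differences ended at 0.250 or 0.231, in the neighbouring brightness classes around 2 and 2.5, so that this probe lay above it.

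**Figure D3:**
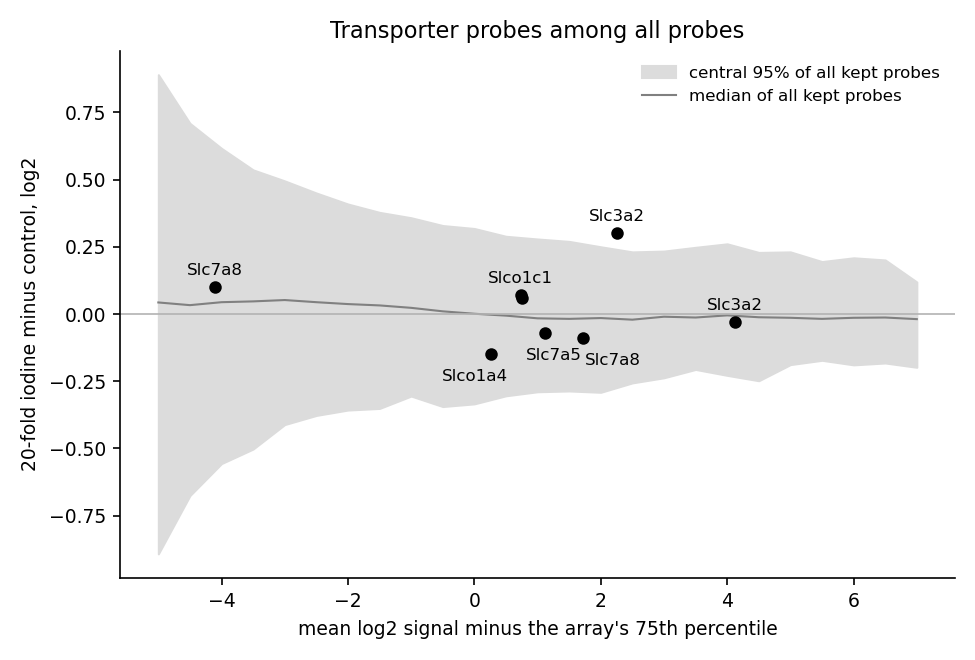
Difference of each tested transporter probe, 20-fold iodine minus control (vertical axis, log2), against its mean level (horizontal axis, log2 signal minus the 75th percentile). The grey band holds the central 95% of all tested probes of like brightness, and the dimmer Slc3a2 probe, at 0.30, is the only transporter probe outside it.

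The probes of Slc3a2 were set against each other within each array. This cancels a scaling factor shared by all probes of an array, but not a scaling that depends on brightness. This comparison was added after the values were seen. The dimmer probe's difference enters the ratio, so the ratio is not a result separate from that probe. The log2 ratio of the brighter over the dimmer probe was 1.69 and 1.70 in 20-fold iodine replicates 2 and 3, against 2.03 and 2.02 in control replicates 2 and 3. The ratio was thus lower on both 20-fold iodine arrays, with 0.33 between the groups and about 0.01 within each. In a limma fit of this ratio over the 6092 genes with at least 2 tested probes the difference was -0.33 ± 0.08 (SE), with a 95% confidence interval of -0.54 to -0.12. It did not pass (adjusted p = 0.265, unadjusted p = 0.0101), and neither did any other gene (0%, smallest adjusted p = 0.253), while 803 genes had an unadjusted p under 0.05. The ratio was lower without overlap in 32.9% of the genes, and 12.3% of genes had a difference at least as large in size. Over the alternatives the Slc3a2 ratio ran from -0.34 to -0.30, and its adjusted p-values from 0.0598 to 0.558.

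The same ratio in the other transporters with a pair of tested probes did not separate the groups. For Slco1c1 it was 0.03 and -0.01 in 20-fold iodine, against 0.03 and 0.01 in controls, a difference of -0.01 ± 0.08 (SE). For Slc7a8 it was 6.0 and 5.46 in 20-fold iodine, against 6.0 and 5.84 in controls, a difference of -0.19 ± 0.20 (SE). The adjusted p-values were 0.968 and 0.743.

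**Figure D4:**
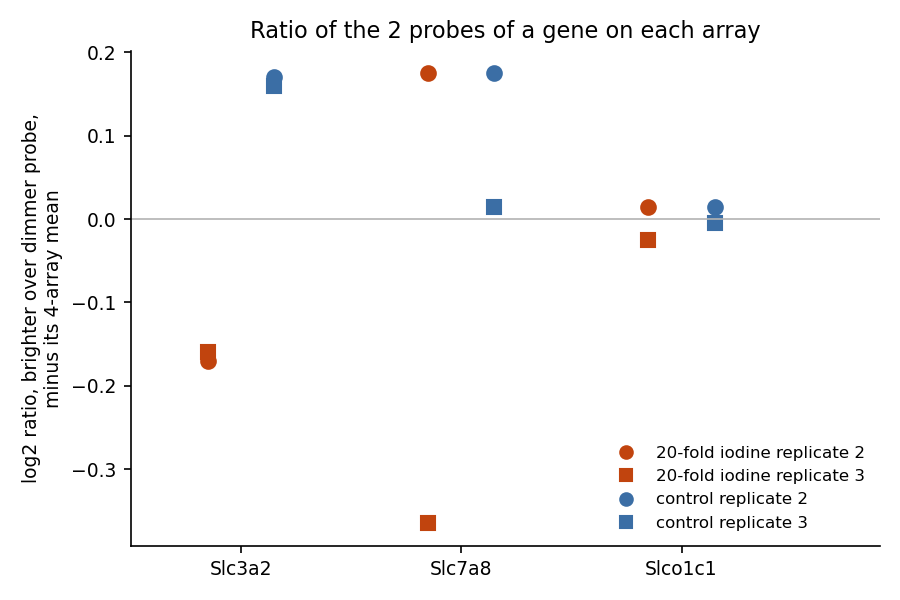
Log2 ratio of the brighter over the dimmer probe of Slc3a2, Slc7a8 and Slco1c1 on each array, as the deviation from the gene's 4-array mean (vertical axis, log2), with 20-fold iodine left of control. The Slc3a2 values of the 2 groups lie apart, while those of the other genes overlap.

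Slc7a5 encodes a light chain that carries large neutral amino acids and iodothyronines at the blood-brain barrier. Its probe, A_55_P2017972, had levels of 1.14 and 1.05 in 20-fold iodine replicates 2 and 3, against 1.36 and 0.96 in control replicates 2 and 3. The highest and the lowest value were both controls, with the 20-fold iodine arrays between them. The difference was -0.07 ± 0.16 (SE, n = 2 per group), with a 95% confidence interval of -0.50 to 0.36, or 0.707-fold to 1.29-fold (limma, adjusted p = 0.926). The gap between the control arrays was 0.39, wider than for any other tested transporter probe, and without control replicate 2 the difference was 0.13. The probe ranked at the 81.8th to 84.2nd percentile.

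Slc7a8 encodes a second light chain, of broader amino acid specificity, which neurons also express in mice. Its probe A_51_P112734 had levels of 1.83 and 1.53 in 20-fold iodine replicates 2 and 3, against 1.68 and 1.87 in control replicates 2 and 3. The lowest value was that of 20-fold iodine replicate 3, and 20-fold iodine replicate 2 lay between the controls. The difference was -0.09 ± 0.14 (SE, n = 2 per group), with a 95% confidence interval of -0.49 to 0.30 (limma, adjusted p = 0.880). The other probe, A_55_P2883452, which the array assigns to the same transcript, was far dimmer, at the 38.1st to 40.9th percentile against the 85.4th to 87.2nd of the first. Its levels were -4.17 and -3.93 in 20-fold iodine, against -4.32 and -3.97 in controls, and its difference was 0.10 ± 0.17 (SE; adjusted p = 0.896). The first probe deviated from its mean by 0.10 and -0.20 in 20-fold iodine replicates 2 and 3 and the second by -0.07 and 0.17, in opposite directions. In control replicates 2 and 3 they deviated the same way, by -0.05 and 0.14 on the first probe and by -0.23 and 0.13 on the second. The brighter and second probe differed in sign in 41.4% of the 6092 genes with several tested probes, and among the transporters in Slc3a2 and Slc7a8 but not in Slco1c1.

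The transporter genes, each by its brighter probe, were lower in 20-fold iodine in 4 of 5 cases, with a median of -0.07, beside -0.01 over the 16793 genes tested, of which 54.3% were lower. This balance did not hold under every setting. With each gene by the mean of its probes 2 of 5 transporters were lower, with a median of 0.002, beside 49.4% of all genes. The median was 0.003 without 20-fold iodine replicate 2 and 0.004 without control replicate 3. Under the other alternatives the median stayed below 0, between -0.094 and -0.059. The software's own error estimate was 14.2 to 15.9% of the signal for the dim Slc7a8 probe and about 10% for the 7 bright probes. It was nearly the same for all bright probes on every array, so it does not measure how far their values vary between arrays. With 2 arrays a group an exact permutation test of a single value cannot give a two-sided p under 0.333.

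Among other transporters that accept thyroid hormone, 6 of 9 were tested, 3 were higher and 3 lower, and 0 passed the threshold. Slco1a5, a close relative of Slco1a4, was dim and varied most. Its levels were -4.81 and -2.96 in 20-fold iodine replicates 2 and 3, against -3.27 and -3.54 in control replicates 2 and 3, with a difference of -0.48 ± 0.65 (SE; adjusted p = 0.856). Like the choroid plexus markers it was lowest on 20-fold iodine replicate 2 and highest on 20-fold iodine replicate 3. Slco4a1 had -1.05 on both 20-fold iodine arrays, against -0.48 and -1.05 in control replicates 2 and 3, and the difference of -0.28 ± 0.21 (SE) rested on control replicate 2. Its second probe gave 0.28. Slco2b1 differed by 0.07 (95% confidence interval -0.26 to 0.39), Slco3a1 by 0.04 (-0.23 to 0.30) and Slco4c1 by 0.15 (-0.27 to 0.57). Slco1a6 and Slc17a4 were well above background on none of the arrays.

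Slc10a1 encodes a bile acid transporter of liver that also takes up iodothyronines, and its probes went apart. A_55_P1954987 had processed signals of 94688.6 and 89722.8 in 20-fold iodine and 99214.2 and 98595.9 in controls, which ranked it between 5th and 7th of 56601 probes on each array. Its other probe, A_66_P133814, was well above background on none of the arrays, with signals of 1.0 to 1.3. The brighter probe differed by -0.01 (95% confidence interval -0.22 to 0.20), and which transcript it read was not tested.

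The other light chains of the Slc3a2 heavy chain were all tested, 2 were higher and 2 lower, and 0 of 4 passed. Slc7a6, of a family that exchanges cationic for neutral amino acids, had levels of 0.09 and -0.08 in 20-fold iodine replicates 2 and 3, against 0.11 and 0.27 in control replicates 2 and 3. Its difference was -0.19 ± 0.11 (SE; adjusted p = 0.676), without overlap, and its second probe gave 0.12. Slc7a11, the cystine and glutamate exchanger, differed by 0.13 (95% confidence interval -0.47 to 0.73), the small neutral amino acid transporter Slc7a10 by 0.11 (-0.26 to 0.48) and Slc7a7, a relative of Slc7a6, by 0.00 (-0.53 to 0.53).

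Of 10 genes that bind, convert or respond to thyroid hormone, 4 were higher, 6 lower and 0 passed the threshold. Ttr, the thyroxine carrier made by the choroid plexus, had levels of 5.62 and 7.99 in 20-fold iodine replicates 2 and 3, against 7.25 and 7.06 in control replicates 2 and 3. It is itself one of the choroid plexus markers. Crym, which binds triiodothyronine in the cytosol, differed by -0.02 (95% confidence interval -0.30 to 0.26). Dio2, the activating deiodinase of astrocytes, had levels of 1.55 and 1.46 in 20-fold iodine replicates 2 and 3, against 1.66 and 1.23 in control replicates 2 and 3. The arrays stood in the same order for Dio2 as for Slc7a5, but with so few arrays many genes share an order, and this likeness was not tested. Dio1 and Dio3, which remove iodine from the hormone, differed by -0.23 ± 0.10 and -0.02 ± 0.24 (SE), and of these Dio1 did not overlap between the groups. That Dio1 probe was dim, and a second tested probe of the gene gave 0.00. The receptor genes Thra and Thrb differed by 0.02 ± 0.10 and -0.11 ± 0.10. Their other tested probes gave 0.12 and 0.23 for Thra and -0.20 for Thrb. The responsive genes Hr, Klf9 and Nrgn differed by 0.10 ± 0.09, -0.03 ± 0.10 and 0.13 ± 0.13.

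**Figure D5:**
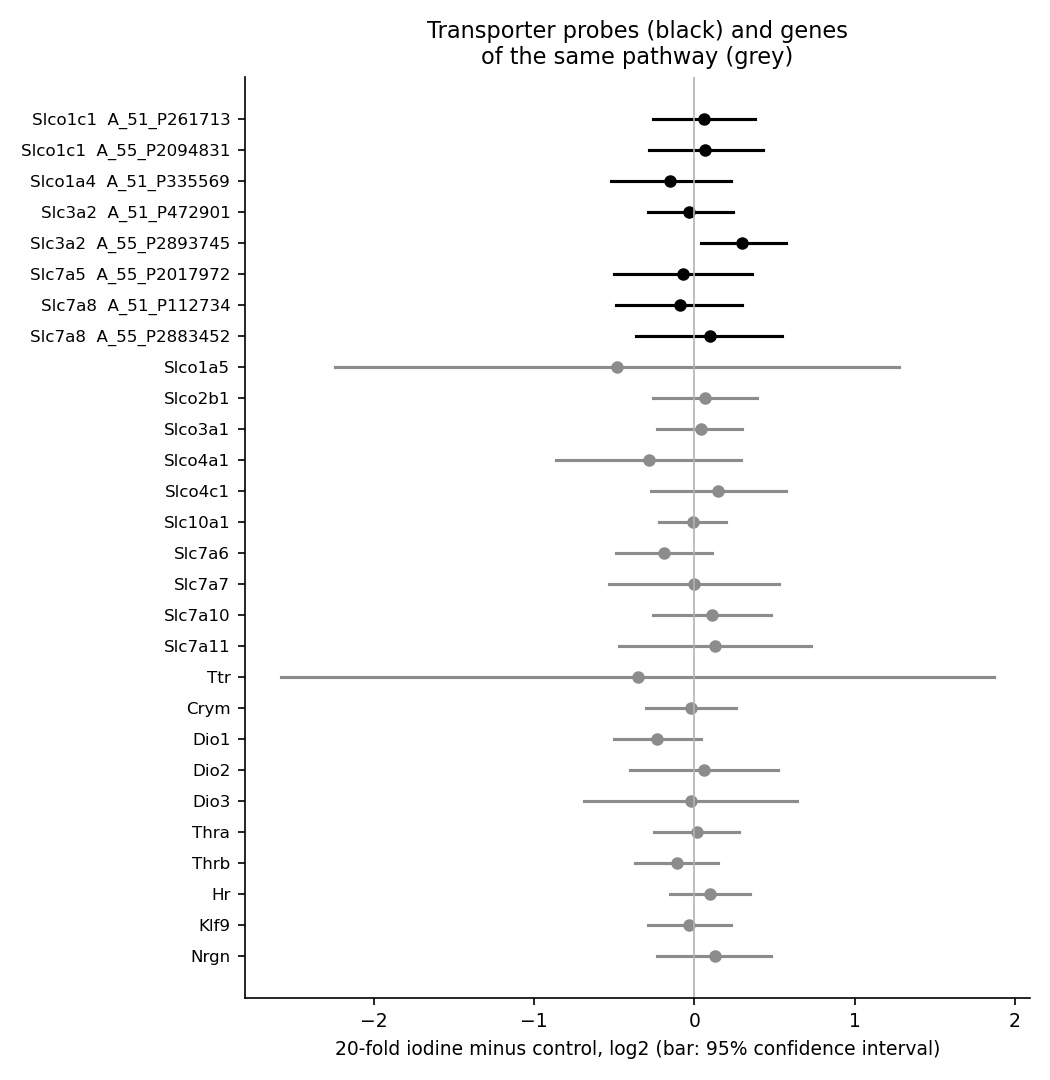
Difference between 20-fold iodine and control (horizontal axis, log2) with its 95% confidence interval for the 8 tested transporter probes in black and for 20 tested genes of the same pathway in grey. The interval of the dimmer Slc3a2 probe, 0.04 to 0.57, is the only one that does not reach 0, and the widest are those of Ttr and Slco1a5.

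The genes whose pattern over the 4 arrays was most like that of each transporter were found by the root mean square difference of the deviations from the 4-array means. For Slco1c1 they were Cfhr2 (0.00236) and Mtmr10 (0.00925), and for Slco1a4 Pcolce2 (0.0132). For Slc3a2 they were Nup188 (0.00568) and Psmg3 (0.00858), for Slc7a5 Uncx (0.00440) and Garem2 (0.0106), and for Slc7a8 Slc7a14 (0.0108) and Mmp16 (0.0129). With only 4 arrays many genes came near a transporter at a wider limit. Between 86 genes (0.512% of all), for Slc7a5, and 669 (3.98%), for Slc3a2, lay within 0.05. The Slc3a2 probe itself deviated little from its mean, by a root mean square of 0.0624. The limit of 0.05 is wider than the values above, so these shares do not show how common so close a likeness was.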

How the data were processed

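Dorsal hippocampus RNA of female mice was labelled with Cy3 and hybridised to 4 arrays. The authors deposited the intensity of each spot as read by Agilent Feature Extraction, version 12.1.1.1. Per the file headers, local background and spatial trends had been removed within each array, with no scaling between arrays. The deposited flags and other values (saturation, outliers, signal well above background) were used as they stood, and 47 to 70 outlier spots per array were left out. No spot was saturated.

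Here signals were put on the log2 scale, spots of a probe were averaged, and the 75th percentile of all non-control probes of an array was taken off its values. Probes were named through RefSeq transcript accessions (GRCm38.p6), which named 32993 of 56601. Coordinates are left out, since the header's genome build is older. Probes well above background on at least 2 arrays were fitted with limma 3.58.1 (lmFit, eBayes, two-sided) in R 4.3.3, across all probes, with Benjamini-Hochberg adjustment and a threshold of 0.05. The fit was tested on simulated data with added changes far larger than any transporter difference, so that test does not cover changes as small as these. The R package data.table, version 1.17.8, read the files, and matplotlib 3.10.9 under Python 3.11.15 drew the plots. Genes other than the 6 transporters are given by their brightest tested probe. Named genes were those of 3 pathway lists and the 2 genes most like each transporter, of which 1 is not reported here. Alternatives covered background, scaling, filter, variance model, summary by gene, replicate block and each array left out. The number of arrays limits the precision. The transporters and lists were chosen with earlier results of these data known.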

Additional observations from a re-analysis of the deposited data

How the results depend on the processing

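No transporter probe passed limma's adjusted p of 0.05 under any alternative run. The number of probes called over the array was 25 with normexp alone, 0 with normexp and quantile normalization, and 53 with an intensity trend and robust variances, against 0 under the other settings, and the cause was not tested. Averaging the probes of a gene put Slc7a8 at 0.002 and Slc3a2 at 0.138, since the second probes of these genes were higher in 20-fold iodine. Leaving out each array in turn, which assumes that the lone array varies like the other group, moved several uncalled differences across 0. The ranges were -0.068 to 0.190 and -0.077 to 0.223 for the Slco1c1 probes A_51_P261713 and A_55_P2094831, and -0.294 to 0.003 for Slco1a4. They were -0.103 to 0.049 for Slc3a2 (A_51_P472901), -0.266 to 0.128 for Slc7a5, and -0.243 to 0.056 and -0.082 to 0.276 for the Slc7a8 probes A_51_P112734 and A_55_P2883452. The ratio of the Slco1c1 probes ran from -0.033 to 0.009 and that of the Slc7a8 probes from -0.463 to 0.081. The dimmer Slc3a2 probe kept its direction throughout, and so did the Slc3a2 ratio, which contains that probe. Replicates share only a number in the labels, and same-numbered arrays did not deviate together (r = -0.0205 across probes). With the replicate block 0 probes were called. The median over all tested probes lay between -0.016 and 0.031 under the scalings tried.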
